A study of Mus musculus with 12 samples.

Results

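The nuclear genes for proteins of the mitochondrial ribosome were followed in mouse small intestine on 12 arrays. On 6 of them the mice had eaten a control high-fat diet (control HF), and on the other 6 a diet in which polyunsaturated fatty acids were low relative to saturated ones (low P/S). Members were taken by name, as every gene with a probe set of its own whose symbol starts with Mrpl (large subunit) or Mrps (small subunit) and a digit, and each was read from its brightest probe set over the 12 arrays. This gave 77 genes of 19937 on the array, 48 Mrpl and 29 Mrps, of which 76 were bright enough to be tested. The probe set of Mrpl53 also names another gene, so Mrpl53 was not counted.

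All mice were wild-type FVB males, labelled with an age of 8 weeks, and both diets lasted 8 weeks. No treatment besides the diet is named, and the series title places the study in work on saturated fat and the excretion of cholesterol through the gut wall. The labels call only the control diet high-fat and do not give the fat content of the low P/S diet, the segment of intestine, the feeding state or the time of dissection. Labels state 6 biological replicates per diet. Whether an array stands for 1 mouse or several is not stated.

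The mitochondrial ribosome makes a small set of very hydrophobic respiratory chain subunits that are encoded in mitochondrial DNA. Its RNA comes from that DNA, whereas all of its proteins are encoded in the nucleus, made in the cytosol and imported. It descends from a bacterial ribosome, has traded much of its RNA for added proteins, and works attached to the inner membrane, where its products are inserted as they are made. The intestinal lining renews itself without pause from dividing crypt cells, and its absorptive cells burn and export large amounts of fuel.

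Most genes of the mitochondrial ribosome were higher on the low P/S diet, by small amounts. Of the 76 tested members 55 rose, 0 fell and 21 did not pass, a share of 72.4% higher where 17.8% of all 11962 tested genes were higher and 7.87% lower (limma, adjusted p under 0.05 over all tested genes). The log2 difference, low P/S minus control, had a median of 0.25 over the members and of 0.02 over all tested genes. It was positive for 73 members and negative for 3 (72 positive under quantile normalization and 74 under median centring). Of the negative ones 1, Mrps10, had an unadjusted p under 0.05, and 12 of the 21 members that did not pass had an unadjusted p under 0.05. The range ran from -0.16 to 0.49. No member reached 1.5-fold, and the largest fold was 1.4.

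Small as the differences were, many separated the diets array by array. For 28 of the 76 members, or 36.8%, every low P/S array lay above every control array, against 6.86% of all tested genes. A difference above the members' median was found for 11.4% of all tested genes, and 63 members lay above the 75th percentile of all genes, which was 0.14. Under quantile normalization of the arrays 48 members were higher, beside 14.8% of all tested genes, and the members' median was 0.18. That scaling moved the share of higher genes among all calls from 69.4% to 53.5%, and median centring moved it to 76.3%. Under median centring 59 members were higher, beside 19.3% of all tested genes. In all 3 scalings 0 members were lower.

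**Figure D1:**
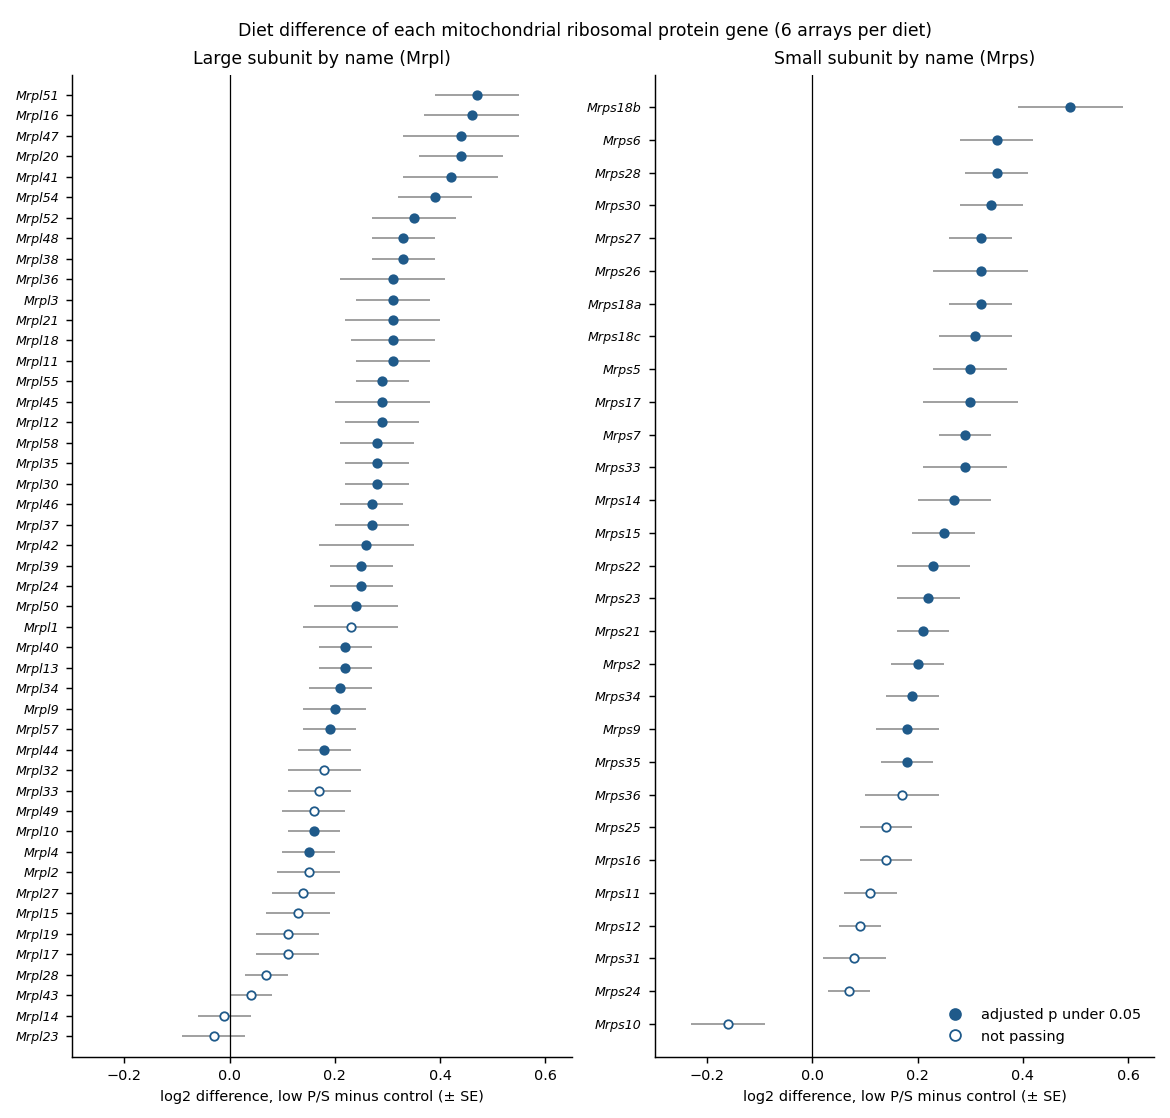
Log2 difference, low P/S minus control (x axis, with standard error), of each tested member (y axis), large subunit by name on the left and small subunit on the right, with filled points for adjusted p under 0.05. Filled points lie between 0.15 and 0.49, and 3 points lie left of 0, Mrps10, Mrpl23 and Mrpl14, none of them filled; under median centring Mrpl14 lay right of 0, at 0.01.

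The large and the small subunit moved by like amounts. Among the Mrpl genes 34 of 47 tested were higher (72.3%), with a median of 0.25, and among the Mrps genes 21 of 29 (72.4%), with a median of 0.23. Groups did not overlap for 17 and 11 members (36.2% and 37.9%, against 6.86% of all tested genes). Names and places differ for a few: Mrps30 and Mrps18a lie in the large subunit in known structures, and Mrps36 is now known as a subunit of the alpha-ketoglutarate dehydrogenase complex. Placed by structure, 36 of 49 large subunit genes and 19 of 26 small subunit genes were higher, with medians of 0.26 and 0.23. On single arrays the median deviation of the Mrpl genes minus that of the Mrps genes lay between -0.06 and 0.04.

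Promoters of the members were set beside these values, because the genes lie scattered over the genome and yet moved together. The promoters of 67 members were found in RefSeq's table (GRCm38.p6, 250 bases before to 50 after the start), and 9 tested members had none there. The 6 printed here, each cut at 30 bases after the start, were chosen after their values were seen: they belong to the member of largest difference, 4 further members that rose with no overlap of the diets, and Mrps11, which did not pass and whose start lies 42 bases from that of Mrpl46. Capitals mark matches to the known core letters of 3 factors linked to mitochondrial genes: CCGGAAG for the ETS family, which holds GABP, GCATGCGC for NRF1, and AAGATGGC for YY1, each on either strand. Every promoter printed holds such a match, which is not so for all members. Mrpl20, for example, rose by 0.44 with no overlap, and its promoter holds none of the 3 cores. The printed promoters are therefore not a typical sample of the members. The stretches are from chr17:35916411-35916690 (minus strand), chr9:105053018-105053297 (plus), chr13:99344536-99344815 (plus), chr17:46110754-46111033 (plus), chr11:115603890-115604169 (plus) and chr7:78782881-78783160 (plus), in the order printed.
Mrps18b: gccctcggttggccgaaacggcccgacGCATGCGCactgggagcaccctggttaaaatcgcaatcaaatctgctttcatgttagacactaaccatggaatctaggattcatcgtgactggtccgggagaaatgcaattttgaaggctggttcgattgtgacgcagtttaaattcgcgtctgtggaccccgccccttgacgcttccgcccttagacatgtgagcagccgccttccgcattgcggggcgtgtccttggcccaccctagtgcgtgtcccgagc
Mrpl3: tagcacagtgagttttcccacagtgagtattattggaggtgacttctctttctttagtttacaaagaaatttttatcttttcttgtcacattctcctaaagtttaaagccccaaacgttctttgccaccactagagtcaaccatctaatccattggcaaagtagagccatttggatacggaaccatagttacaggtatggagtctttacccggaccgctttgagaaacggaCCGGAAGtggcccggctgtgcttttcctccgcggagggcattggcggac
Mrps27: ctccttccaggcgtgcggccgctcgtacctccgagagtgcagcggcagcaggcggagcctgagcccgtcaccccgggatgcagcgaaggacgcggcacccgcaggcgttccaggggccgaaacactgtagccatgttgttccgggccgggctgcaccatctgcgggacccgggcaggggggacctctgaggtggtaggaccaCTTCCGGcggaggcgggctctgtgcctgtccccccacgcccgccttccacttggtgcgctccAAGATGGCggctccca
Mrps18a: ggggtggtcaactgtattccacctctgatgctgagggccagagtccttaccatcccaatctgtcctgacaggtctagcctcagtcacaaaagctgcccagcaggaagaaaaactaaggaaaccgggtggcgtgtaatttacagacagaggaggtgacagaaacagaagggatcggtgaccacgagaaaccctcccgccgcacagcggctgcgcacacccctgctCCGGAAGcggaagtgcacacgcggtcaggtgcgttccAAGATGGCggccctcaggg
Mrps7: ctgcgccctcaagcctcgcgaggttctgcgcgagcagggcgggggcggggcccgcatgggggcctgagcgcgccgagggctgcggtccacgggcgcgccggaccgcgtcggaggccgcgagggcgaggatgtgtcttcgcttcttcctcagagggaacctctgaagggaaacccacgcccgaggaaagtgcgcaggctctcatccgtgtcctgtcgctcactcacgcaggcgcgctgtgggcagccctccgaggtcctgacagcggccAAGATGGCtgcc
Mrps11: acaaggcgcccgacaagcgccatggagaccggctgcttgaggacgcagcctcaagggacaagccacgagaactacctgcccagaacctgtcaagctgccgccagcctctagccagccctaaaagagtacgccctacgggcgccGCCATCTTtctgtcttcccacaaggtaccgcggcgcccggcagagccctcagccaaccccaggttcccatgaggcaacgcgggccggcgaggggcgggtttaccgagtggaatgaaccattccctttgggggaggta

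Mrpl3 shows the ETS letters close to its start, and Mrps27 and Mrps18a show the ETS letters before the start with the YY1 letters just after it. Mrps7 shows only the YY1 letters, Mrps11 the YY1 letters on the other strand, and Mrps18b the NRF1 letters far upstream, with its ETS match past the printed stretch. Of the 67 members 24 held the ETS core (35.8%), against 19.2% of tested genes with a promoter and 9.93% of all genes in the promoter table. The YY1 core was found in 12 (17.9%, against 5.16% and 3.19%) and the NRF1 core in 7 (10.4%, against 5.75% and 3.05%). CACGTG, the E-box bound by Myc, was in 5 (7.46%, against 11.7% and 8.09%), and AAGGTCA, the half-site of the estrogen-related receptors, in 4 (5.97%, against 4% and 5.38%). Within the members, the ETS core was present in 18 of 48 that rose and 6 of 19 that did not pass, and the YY1 core in 7 of 48 and 5 of 19. These are matches of letters, and binding was not measured.

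At the stalks and the sites where translation factors act, 3 of 4 genes rose, with a median of 0.26. Mrpl12, the repeated protein of the stalk that recruits translation factors, had intensities of 422 to 471 in control mice, median 439, and of 448 to 604, median 569, on the low P/S diet. One low P/S array lay within the control range and 5 lay above it. Its difference was 0.29 ± 0.07 (SE, n = 6 per diet, adjusted p = 0.00498). Mrpl11, at the factor-binding RNA, rose by 0.31 ± 0.07 (adjusted p = 0.00426). Mrpl10, the base of that stalk, rose by 0.16 ± 0.05 with no overlap of the diets, but under quantile normalization it had an adjusted p of 0.232. Mrpl1, of the stalk where spent transfer RNA leaves, had a difference of 0.23 ± 0.09 and an adjusted p of 0.0821. It passed when control 1 or control 2 was left out (lowest adjusted p over all alternatives 0.008).

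Close to the catalytic centre 3 of 5 genes rose, with a median of 0.15. Mrpl16, a core protein by the transfer RNA site, ran from 224 to 324 in control mice, median 283, and from 348 to 450, median 395, on the low P/S diet. Every low P/S array was above every control array. The difference was 0.46 ± 0.09 (adjusted p = 0.00134), 1.38-fold. Mrpl3, whose arm reaches toward the centre, went from 308 to 404, median 356, to 404 to 519, median 427. The lowest low P/S array and the highest control array differed by less than the rounding of these values, and the difference was 0.31 ± 0.07 (adjusted p = 0.004). Mrpl4, which lines the peptide tunnel, rose by 0.15 ± 0.05 (adjusted p = 0.0294). That call was lost without control 2, 3 or 6 or low P/S 3, 4 or 5 (adjusted p up to 0.0704) and under quantile normalization (0.188). Mrpl2 and Mrpl27, both beside the peptidyl transferase centre, had differences of 0.15 ± 0.06 and 0.14 ± 0.06 and did not pass (adjusted p = 0.0758 and 0.0954). Mrpl2 passed under median centring and Mrpl27 without control 1.

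At the tunnel exit, where the new peptide leaves toward the membrane, 4 of 6 tested genes rose, with a median of 0.21. Mrpl47 ran from 128 to 193 in control mice, median 166, and from 180 to 302, median 220, on the low P/S diet. The groups overlapped slightly, with 5 of 6 low P/S arrays above every control array. Its difference was 0.44 ± 0.11 (adjusted p = 0.00889). Mrpl24 rose by 0.25 ± 0.06 and Mrpl44, a ribonuclease-like protein, by 0.18 ± 0.05 (adjusted p = 0.00825 and 0.0121). Mrpl45, which anchors the ribosome at the inner membrane, rose by 0.29 ± 0.09 (adjusted p = 0.024), a call lost without control 3 or 6 or low P/S 1 or 4 (adjusted p up to 0.0585) and without moderation of the variance (0.0683). Mrpl23, at the same exit, ran from 529 to 705 in control mice, median 599, and from 555 to 634, median 591, on the low P/S diet. Its groups overlapped throughout, the difference was -0.03 ± 0.06 (adjusted p = 0.775), and without control 1, the highest control array, it was 0.02. Mrpl22, which lines the tunnel, was too dim to test, with geometric means of 76.8 and 82.9.

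The central protuberance, the crest that bridges to the small subunit, was the region in which all members passed. All 8 of its genes rose (Mrpl18, Mrpl38, Mrpl40, Mrpl46, Mrpl48, Mrpl52, Mrpl55 and Mrpl58), with differences of 0.22 to 0.35 and a median of 0.30, and 6 of them did not overlap between diets. Over all tested genes 6.86% did not overlap in this direction. The region was singled out after its values were seen. Members were assigned to regions by hand, so the count of 8 rests on that assignment. Mrpl48 was read from a probe set whose number falls among genes of other chromosomes, as described below, and had no other. Mrpl38 ran from 247 to 311 in control mice, median 267, and from 326 to 373, median 345, on the low P/S diet. The diets were well apart, and the difference was 0.33 ± 0.06 (adjusted p = 0.00146). Mrpl58, a peptidyl-tRNA hydrolase built into the ribosome, rose by 0.28 ± 0.07 (adjusted p = 0.00572).

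The other 26 large subunit genes by structure held 18 that rose, with a median of 0.24. Mrpl20 ran from 271 to 334 in control mice, median 305, and from 363 to 489, median 392, on the low P/S diet. No array overlapped, and the difference was 0.44 ± 0.08 (adjusted p = 0.000904). Mrpl54 rose by 0.39 ± 0.07 (adjusted p = 0.00109). Mrps30 and Mrps18a, the pair with small subunit names, rose by 0.34 ± 0.06 and 0.32 ± 0.06 with no overlap (adjusted p = 0.00122 and 0.0019). Mrpl32, which the m-AAA protease matures before assembly, had a difference of 0.18 ± 0.07 and did not pass (adjusted p = 0.0681); without control 1 or low P/S 6 it passed (lowest adjusted p over all alternatives 0.0297). Mrpl14, at the face toward the small subunit, lay at -0.01 ± 0.05 (adjusted p = 0.849).

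**Figure D2:**
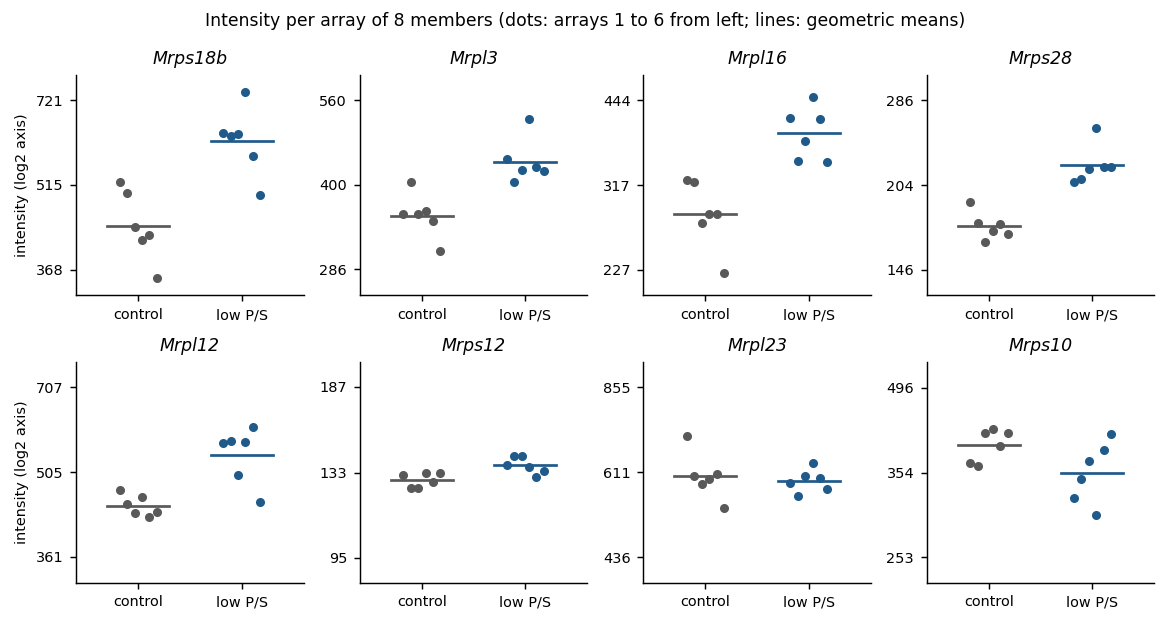
Intensity (y axis, log2 scale) on each array for 8 members, 6 control arrays in grey and 6 low P/S arrays in blue, with lines at the geometric means. Mrpl3, Mrpl16 and Mrps28 have no overlap between diets, Mrps18b, Mrpl12 and Mrps12 overlap by 1 low P/S array, and Mrpl23 and Mrps10 overlap more.

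Of the small subunit body and platform 12 of 15 genes rose, with a median of 0.25. Mrps18b ran from 356 to 521 in control mice, median 428, and from 495 to 744, median 627, on the low P/S diet. The lowest low P/S array lay under the 2 highest control arrays and the other 5 lay above all controls. Its difference, 0.49 ± 0.10 (adjusted p = 0.00198), was the largest of all members. Mrps28 ran from 163 to 191, median 173, and from 207 to 256, median 218, so that the diets were apart on every array, with a difference of 0.35 ± 0.06 (adjusted p = 0.000556). Mrps6 rose by 0.35 ± 0.07 and Mrps18c by 0.31 ± 0.07, both without overlap (adjusted p = 0.00138 and 0.00721). Mrps26 rose by 0.32 ± 0.09 (adjusted p = 0.0164, but 0.0549 without moderation of the variance), and Mrps27 by 0.32 ± 0.06 from a control range of 106 to 115 to a low P/S range of 127 to 158 (adjusted p = 0.000985). The 3 proteins named Mrps18 are relatives of 1 bacterial protein and take different places in the ribosome, and all 3 rose.

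Weaker members of the body were Mrps22 and Mrps34, both mitochondrial additions. Mrps22 rose by 0.23 ± 0.07 (adjusted p = 0.0231), lost without control 4 or 6 or low P/S 1 or 4 or without moderation of the variance (adjusted p up to 0.056), and Mrps34 by 0.19 ± 0.05 (adjusted p = 0.017), with an adjusted p of 0.0904 under quantile normalization. Mrps16 had a difference of 0.14 ± 0.05 and did not pass (adjusted p = 0.0697), and without low P/S 1 it passed (lowest adjusted p over all alternatives 0.0295).

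In the head of the small subunit 5 of 7 genes rose, with a median of 0.18. Mrps7, which binds the RNA of the head early in assembly, ran from 285 to 323 in control mice, median 304, and from 349 to 408, median 366, on the low P/S diet. No array overlapped, and the difference was 0.29 ± 0.05 (adjusted p = 0.000931). Mrps14 rose by 0.27 ± 0.07 (adjusted p = 0.00927). Mrps9 rose by 0.18 ± 0.06 (adjusted p = 0.0303), lost without control 3 or 6 or low P/S 4, 5 or 6 (adjusted p up to 0.0584) and under quantile normalization (0.062). Mrps10, also of the head, was the member furthest in the other direction, with 364 to 420 in control mice, median 404, and 299 to 412, median 357, on the low P/S diet. The groups overlapped, the difference was -0.16 ± 0.07 and it did not pass (adjusted p = 0.116), whereas without low P/S 6, its highest low P/S array, it passed as lower with an adjusted p of 0.0417.

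Around the messenger RNA and the decoding centre 2 of 4 genes rose, with a median of 0.14. Mrps5, at the messenger entrance, rose by 0.30 ± 0.07 with no overlap (adjusted p = 0.00512), and Mrps2 rose by 0.20 ± 0.05 (adjusted p = 0.0137, but 0.0823 under quantile normalization). Mrps12, the decoding protein that guards accuracy, ran from 125 to 133 in control mice, median 130, and from 131 to 142, median 137. Of the low P/S arrays 5 lay above all controls, but the difference was only 0.09 ± 0.04 (adjusted p = 0.152). Mrps24, also at the entrance, had a difference of 0.07 ± 0.04 (adjusted p = 0.23). Mrps36, the dehydrogenase subunit, had a difference of 0.17 ± 0.07 and did not pass (adjusted p = 0.091), and it passed when control 2 was left out (lowest adjusted p over all alternatives 0.0201).

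Members from families of bacterial ribosomal proteins and members outside these families were both well represented. Of 47 tested members from such families 31 rose (66%), with a median of 0.23. Of 29 outside them, with Mrps36 counted among these, 24 rose (82.8%), with a median of 0.26. The 3 negative differences belonged to the first class. The difference between these shares was not tested, since members of 1 complex on the same arrays are not replicates.

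Probe sets disagreed for some of the largest differences. For 8 members a further probe set names the same gene. In a fit of 12969 probe sets Mrps5 (0.30 and 0.23) and Mrpl41 (0.42 and 0.13) passed on both, while Mrpl51 stood at 0.47 on the brighter and 0.14 on the dimmer (adjusted p = 0.000563 and 0.237), and Mrpl47 at 0.44 and 0.01 (adjusted p = 0.00942 and 0.943). In the main fit Mrpl51 and Mrpl41 had differences of 0.47 ± 0.08 and 0.42 ± 0.09 (adjusted p = 0.000492 and 0.00427). The second probe set of Mrps33 was too dim to test, and the mean of its probe sets gave an adjusted p of 0.0673.

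Probe set numbers follow the chromosomes on this array, so the 20 probe sets of nearest number were looked up for each member. For 72 members at least 50% of these neighbours belonged to genes of the member's own chromosome in RefSeq (GRCm38.p6). For the other 5, namely Mrpl27, Mrpl41, Mrpl48, Mrpl51 and Mrps33, the share was 0%. Over all genes, 1.43% had under 50% of these neighbours on their own chromosome. With the probe sets that do sit among genes of the own chromosome, Mrpl41 passed at 0.13, Mrpl51 (0.14) and Mrpl27 (0.05) did not pass, and Mrps33 was too dim, and Mrpl48 had no such probe set. Then 52 of 74 members were higher, with a median of 0.23. Where the probes lie in the genome is not in the tables used here, and the part of transcripts from other loci was not tested.

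The rise did not weigh equally on all arrays. As deviations from each gene's mean over the 12 arrays, the members' median lay between -0.27 and -0.01 on control arrays and between 0.05 and 0.23 on low P/S arrays, and that of all tested genes between -0.04 and 0.03. Control 6 was the lowest control array for 49 of 76 members (31.2% of all tested genes) and low P/S 4 the highest low P/S array for 43 (26.1%). Controls 1 and 2 were the highest control arrays for 36 and 22 members (29.9% and 16.5% of all tested genes). Without control 6, or without low P/S 4, 47 members were higher, beside 13.5% of all tested genes in each case. Without controls 1 and 2 together 64 members were higher, beside 22.7% of all tested genes. In the main fit these values were 55 and 17.8%, so the calls of all genes moved the same way. Of the 55 members that rose, 47 passed with each array left out in turn. The 8 that did not were Mrpl4, Mrpl36, Mrpl42, Mrpl45, Mrpl50, Mrps9, Mrps17 and Mrps22, and all 8 were lost without control 6 and without low P/S 4, with adjusted p up to 0.111 over the arrays left out.

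**Figure D3:**
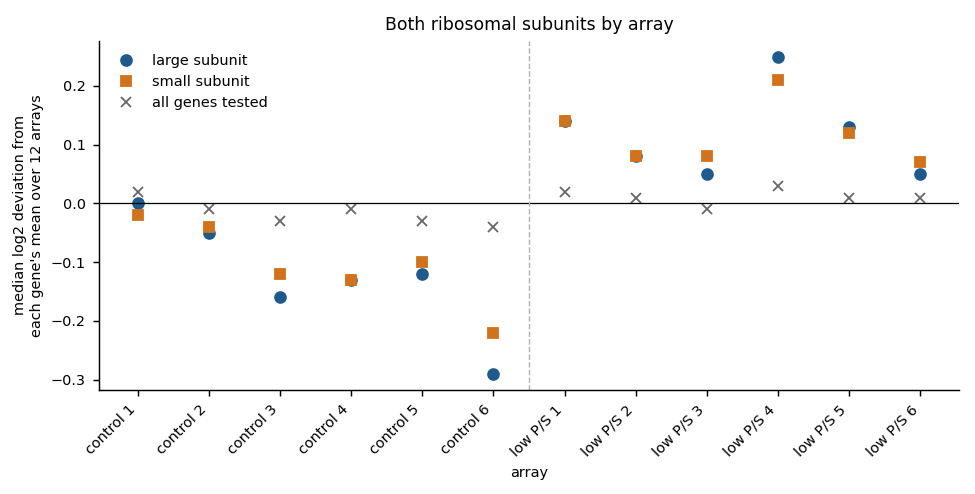
Median log2 deviation from each gene's mean over the 12 arrays (y axis) on each array (x axis), for large subunit genes, small subunit genes and all tested genes. Both subunits lie at or under 0 on all 6 control arrays and above 0 on all 6 low P/S arrays, lowest on control 6 (-0.29 and -0.22) and highest on low P/S 4 (0.25 and 0.21).

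Several members share a start region with a gene read from the other strand. Of the 67 members with a known promoter, 23 (34.3%) had such a neighbour within 500 bases, against 17% of tested genes. Of 15 tested neighbours that are not members 7 rose, 0 fell and 8 did not pass, with a median of 0.16, and their 15 members had a median of 0.22. Over all tested genes 17.8% were higher and 7.87% lower. Among the 7 that rose, Twnk and Psma2 lost their calls under 15 and 11 of the alternatives. Twnk and Ndufb5 also belong to lists described below, of mitochondrial transcription and the respiratory chain, in which many genes rose. The part of the shared start region in the neighbours' differences was not tested. Mrpl18 and its neighbour Tcp1, a subunit of the cytosolic chaperonin, both rose, by 0.31 and 0.39. Mrps27 and Ptcd2 rose by 0.32 and 0.27, and Mrpl47 and Ndufb5, a complex I subunit, by 0.44 and 0.30. In other pairs 1 side alone passed: Mrps5 rose (0.30) beside Zfp661 at 0.01, and Mrpl40 (0.22) beside Hira, a histone chaperone, at 0.01. Mrps12 did not pass beside Sars2, the mitochondrial seryl-tRNA synthetase, which rose by 0.19 (adjusted p = 0.0159). Mrpl46 rose by 0.27 and Mrps11 had a difference of 0.11 that did not pass (adjusted p = 0.114). Whether the differences within pairs exceed their errors was not tested. Zfp661 and Hira also took negative values under some alternatives.

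**Figure D4:**
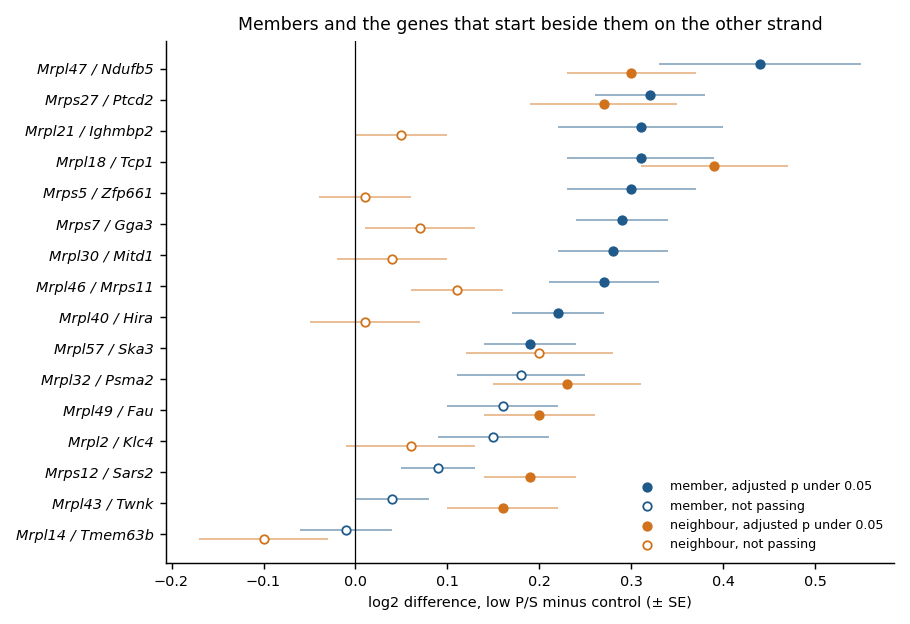
Log2 difference, low P/S minus control (x axis, with standard error), of 16 member genes in blue and of the tested genes that start beside them on the other strand in orange (y axis), with filled points for adjusted p under 0.05. Both are filled for Mrpl47, Mrps27 and Mrpl18, the member alone for 7 pairs, and the neighbour alone for 4.

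Beyond the core subunits the rest of the mitochondrial translation apparatus was read from lists of known roles. Of 4 ribosome proteins under other names 3 rose, with a median of 0.18: Ptcd3 (0.41 ± 0.11), Chchd1 (0.19 ± 0.07) and Gadd45gip1 (0.17 ± 0.05). Chchd1 lost its call under 11 alternatives that included leaving out control 1, 3, 4 or 6 or low P/S 2, 4, 5 or 6 (0.14 without control 6). Dap3, the GTP-binding protein of the small subunit, had a difference of 0.13 ± 0.06 (adjusted p = 0.105). Among translation factors 9 of 12 rose (75%, against 17.8% of all tested genes), with a median of 0.27. Tufm, the elongation factor that delivers transfer RNA, ran from 591 to 765 in control mice, median 689, and from 871 to 937, median 902, on the low P/S diet. The diets were far apart, and the difference was 0.41 ± 0.06 (adjusted p = 0.000195). The initiation factors Mtif2 and Mtif3 rose by 0.36 ± 0.07 and 0.30 ± 0.06, and Taco1, which activates translation of a cytochrome oxidase subunit, by 0.28 ± 0.06 (adjusted p = 0.00164, 0.00161 and 0.0027).

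Of 26 tested factors that build the ribosome 6 rose (23.1%, close to the 17.8% of all tested genes), with a median of 0.11. They included Mtg1, a GTPase of late large subunit assembly (0.24 ± 0.05), Trub2 (0.35 ± 0.08), Tfb1m, which methylates the small subunit RNA (0.21 ± 0.05), and Mpv17l2 (0.20 ± 0.05, with an adjusted p of 0.0622 under quantile normalization). Of the 10 genes of mitochondrial transcription and DNA maintenance 6 rose, with a median of 0.20. Lrpprc and Slirp, partners that stabilize mitochondrial messengers, rose by 0.44 ± 0.08 and 0.28 ± 0.06, Tfb2m by 0.50 ± 0.09, and the RNA polymerase Polrmt by 0.19 ± 0.05 (adjusted p = 0.00093, 0.00395, 0.00112 and 0.00677). Tfam, which packs mitochondrial DNA, had a difference of 0.21 ± 0.09 and did not pass (adjusted p = 0.0798). Of 9 inner membrane protease and quality control genes 5 rose, with a median of 0.17, led by Phb2 (0.34 ± 0.06), Lonp1 (0.38 ± 0.07) and Clpp (0.26 ± 0.06). Afg3l1 also rose (0.19 ± 0.06, adjusted p = 0.0379), though not under quantile normalization. Afg3l2 (0.15), Spg7 (0.02), Yme1l1 (0.14) and Oma1 (0.06) did not pass. Clpx rose by 0.17 ± 0.05. That call was lost without control 3 or 6 or low P/S 1 or 4, when 3 of the 9 were left as higher. It was also lost under quantile normalization (adjusted p = 0.0763), again with 3 of the 9 higher.

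Of 10 tested drivers of nuclear genes for mitochondria 2 rose, 1 fell and 7 did not pass, with a median of 0.09. The shares, 20% higher and 10% lower, lay close to the 17.8% and 7.87% of all tested genes. Ppargc1a, the coactivator PGC-1 alpha, ran from 659 to 861 in control mice, median 720, and from 310 to 580, median 411, on the low P/S diet. Every low P/S array lay under every control array, with a difference of -0.77 ± 0.12 (adjusted p = 0.000463). Its relative Ppargc1b ran from 130 to 169, median 153, and from 175 to 218, median 192, and rose without overlap by 0.35 ± 0.06 (adjusted p = 0.00109). Pprc1, the third relative, rose by 0.22 ± 0.07 (adjusted p = 0.0328), lost without control 1, 3 or 5 or low P/S 2, 3, 4 or 6 (0.17 without low P/S 4). The receptor Esrra stood at -0.15 ± 0.06 and Myc at 0.11 ± 0.09 (adjusted p = 0.0877 and 0.387). Esrra passed as lower under quantile normalization (adjusted p = 0.0421) and without controls 1 and 2 together. The ETS family subunits Gabpa, Gabpb1 and Gabpb2 stood at 0.08 ± 0.07, 0.09 ± 0.07 and 0.13 ± 0.07, Nrf1 at 0.03 ± 0.06 and Yy1 at 0.05 ± 0.06, and none passed (adjusted p between 0.183 and 0.779). Gabpb2 passed as higher when control 1 was left out, and Nrf1 and Yy1 turned negative under quantile normalization.

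The complexes most like the mitochondrial ribosome also held many genes that rose. Of 80 nuclear respiratory chain subunits 53 were higher (66.2%) and 1 lower, with a median of 0.21, and of 58 cytosolic ribosomal proteins 36 were higher (62.1%) and 0 lower, with a median of 0.20. Groups did not overlap, with low P/S higher, for 23 and 18 of them (28.8% and 31%), against 6.86% of all tested genes. Over all tested genes 17.8% were higher and 7.87% lower. The shares and medians were not tested against those of the members, as all come from the same arrays.

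**Figure D5:**
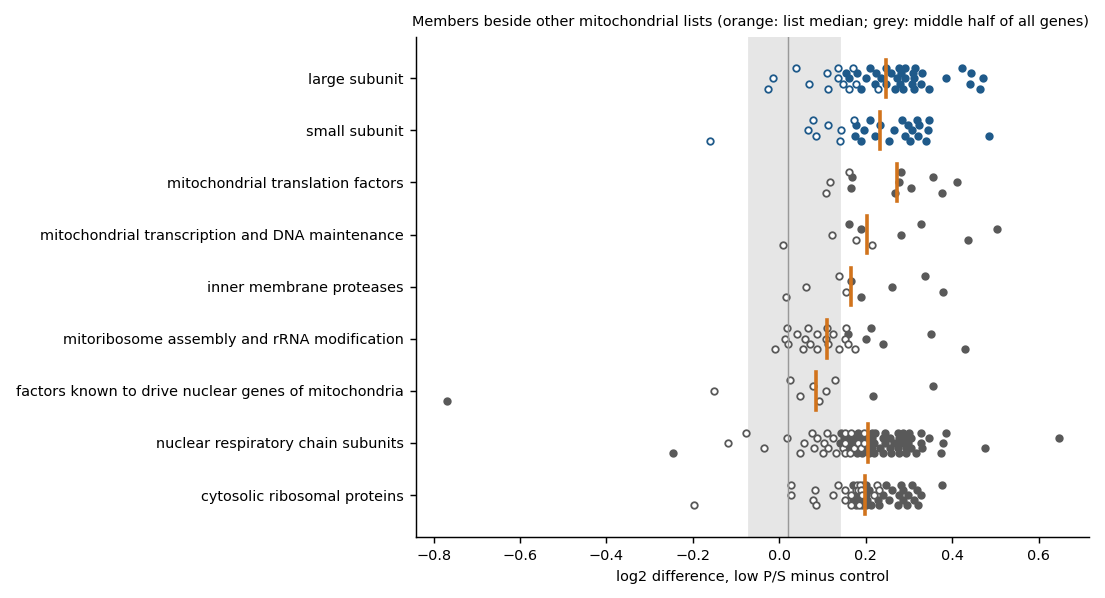
Log2 difference, low P/S minus control (x axis), of single genes in each list (y axis), filled where adjusted p was under 0.05, with the list median in orange and the middle 50% of all tested genes in grey (-0.07 to 0.14). The medians of both ribosomal subunits (0.25 and 0.23) and of the translation factors (0.27) lie right of the grey band. So do those of the respiratory chain (0.21), cytosolic ribosomal proteins (0.20), mitochondrial transcription and DNA maintenance (0.20) and the proteases (0.17). The medians of the assembly factors (0.11) and the drivers (0.09) lie in the band, and the point at -0.77 is Ppargc1a.

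Markers of some cell types moved with the diet too. Over all tested genes 17.8% were higher and 7.87% lower. Of 9 crypt proliferation markers 7 rose, 0 fell, with a median of 0.34, and their summed intensity was 2510 to 3896 on control arrays and 3674 to 4959 on low P/S arrays. Mcm2, of the replicative helicase, rose by 0.86 ± 0.14 (adjusted p = 0.000553) and Mki67, a marker of cycling cells, by 0.43 ± 0.11 (adjusted p = 0.0105). Of 10 enterocyte markers 5 fell, 1 rose and 4 did not pass, with a median of -0.25 and sums of 69930 to 94794 on control arrays and 62820 to 73035 on low P/S arrays. Slc5a1, the brush border glucose transporter, fell by 0.81 (SE 0.13, adjusted p = 0.000556), Anpep, a brush border peptidase, by 0.63 (SE 0.08, adjusted p = 5.07e-05), and Fabp1, a fatty acid binding protein, rose by 0.21 ± 0.08 (adjusted p = 0.0481). Of 4 tested T and B cell markers 2 fell, the T cell genes Cd3e (-0.26) and Cd8a (-0.30). Cd3g (-0.30) and the B cell gene Cd79b (0.15) did not pass. The B cell genes Cd79a and Ms4a1 were too dim to test. Cd79b, Cd79a and Ms4a1 reached 182, 193 and 168 at their highest on low P/S arrays, against 96.0, 64.3 and 50.9 on control arrays. Sums of this list were 846 to 999 on control arrays and 694 to 1276 on low P/S arrays. None passed among 8 tested markers of smooth muscle (lowest adjusted p in limma 0.262), 3 of adipose tissue (0.0744) and 2 of exocrine pancreas (0.417). In these lists 0 markers were at 0, and the 10 enterocyte markers were all well above the limit for dim genes. The part of these shifts in the members' differences was not tested, and in tissue RNA fewer cells of a type and less RNA per cell cannot be told apart.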

How the data were processed

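Total RNA of small intestine was labelled from 500 ng per array, without removal of ribosomal RNA, per the labels' protocols. The authors deposited 1 intensity value per probe set and array, on a linear scale between 17.7 and 20294. The sources used here do not give their summarization and normalization. Array medians lay between 91.9 and 99.5. Of 34760 probe sets 21640 named 1 gene symbol in the platform annotation, 1321 several and 11799 none. The brightest 1-symbol probe set per gene gave 19937 genes, and the log2 of the deposited intensity was used. Dim genes, below a geometric mean of 85.6 (percentile 40 over genes), were dropped, and 11962 stayed in the test.

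The diets were compared by a two-sided moderated test on diet alone (limma 3.58.1, functions lmFit and eBayes, in R 4.3.3), with Benjamini-Hochberg adjustment over all tested genes and a threshold of 0.05. Python 3.11.15, pandas 2.3.3 and NumPy 2.4.6 were used for the rest. The fit was also run on simulated data in which genes varied independently, so that run cannot speak to shifts shared by many genes. Differences are log2 values, low P/S less control, with their standard error. Intensities of different genes were not compared, and precision is limited by 6 arrays per diet. No batch, scan date or slide is given, so none could be tested. Of all pairs of arrays 0 held identical values.

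The members and lists were chosen with earlier results of these data known. Named in full are the 6 passing members of largest difference per subunit and direction, 27 members of known place in the ribosome whatever their values, members whose probe sets disagree, up to 4 genes of smallest p per other list, and all 10 drivers of mitochondrial genes. Mrpl4, Mrpl14, Mrpl32, the genes of the central protuberance, Mrps2, Mrps10, Mrps11, Mrps27, Tfam, Fabp1 and the neighbours of members were named after their values were seen. So were Afg3l1, Afg3l2, Spg7, Yme1l1 and Oma1. The promoter, neighbour and probe set number searches were also made after the values were known. Diets share replicate numbers 1 to 6, but same-numbered arrays correlated between -0.11 and 0.42 in their deviations from the diet means, so the numbers were not used as pairs. Alternatives were 3 scalings in all, 2 further filters on dim genes, a pseudocount of 16, the mean of probe sets, ordinary variances, the replicate number as a block, each array left out, controls 1 and 2 left out together, and, added after seeing the data, other probe sets of the members.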

Additional observations from a re-analysis of the deposited data

Results flagged for a closer look

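Single arrays stood apart from the other 5 of their diet for 8 of 154 combinations of member and diet by Dixon's ratio. This is the gap to the next array over the group's range, both on log2 values, whereas the values printed here are linear intensities. Chance alone marks about 1 in 20 such groups. On low P/S 4 the highest value lay apart for Mrps28 (256, next 219, gap 0.73 of the range), Mrpl49 (447, next 393, 0.72), Mrps6 (294, next 244, 0.70) and Mrpl3 (519, next 443, 0.63). On control 6 the lowest value lay apart for Mrpl18 (654, next 833, 0.67) and Mrps18c (686, next 844, 0.63). Mrpl21 lay low on control 4 (179, next 204, 0.73), and Mrpl28 lay low on low P/S 5 (234, next 240, 0.67). The calls of Mrps28, Mrps6, Mrpl3, Mrpl18, Mrps18c and Mrpl21 held with each array left out.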

How the results depend on the processing

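Counts of members that rose stayed within 1.5 times of the main count under all 22 alternatives. Large subunit members numbered 29 to 38 and small subunit members 18 to 23 with single arrays left out, and 41 and 23 without controls 1 and 2. The share of all tested genes that were higher ran from 13.5% to 19.7% with single arrays left out. Without controls 1 and 2 it was 22.7%. Of the 55 members that rose 40 passed under each alternative that tested them. Same-numbered arrays of the diets correlated best with their own number for 2 of 6 control arrays, and with the replicate number as a block 58 members rose, among 2454 genes higher and 1076 lower in all.

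The small subunit median moved to 0.16 under quantile normalization. Signs turned only near 0. Under quantile normalization Mrpl43 stood at -0.02, Nrf1 at -0.01, Yy1 at -0.02, Hira at -0.05 and Klc4 at -0.03. Mrpl14 stood at 0.01 under median centring and between -0.03 and 0.00 with single arrays left out. With single arrays left out Mrpl23 stood between -0.06 and 0.02, Zfp661 between -0.01 and 0.04, and Hira between -0.03 and 0.04. Without controls 1 and 2 together Mrpl23 stood at 0.03 and Zfp661 at -0.01. The cause was not tested. Among genes that are no members, Twnk lost its call under 15 of the alternatives, Chchd1 and Psma2, the neighbour of Mrpl32, under 11 each, and Pprc1 under 9.

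The scaling by the authors is unknown, so small shifts shared by many genes depend on it. Members on the same arrays are not independent of one another.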
